A study of Homo sapiens with 2 samples.

Results

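The small nucleolar RNAs (snoRNAs) and small Cajal body RNAs (scaRNAs) of Capan-1 cells were compared between 1 library of an olaparib-resistant derivative and 1 library of the parental line. Capan-1 is an established human cell line from a pancreatic tumour that carries mutated BRCA2, although the labels give its cell type as breast cancer. Per the labels, the resistant cells were made by raising olaparib, a PARP inhibitor, in steps between 15 nM and 128 uM, and the parental cells are the control. The labels say neither whether the derivative is 1 clone nor whether olaparib was present at harvest. Members were chosen by symbol and by count in these same libraries: genes whose symbol starts with SNORA, SNORD or SCARNA followed by a digit, that lie outside chromosome 13 and that had at least 50 counts in either library were taken. Of 31845 genes in the table, 298 carried such a symbol, 293 of these lay outside chromosome 13, and 83 reached 50 counts. These were 45 SNORA, 25 SNORD and 13 SCARNA genes. The other 210 had fewer than 50 counts in both libraries, and 97 of them fewer than 10.

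SNORD genes encode box C/D snoRNAs, which guide ribose methylation of ribosomal RNA, and SNORA genes encode H/ACA snoRNAs, which guide the change of uridine to pseudouridine. scaRNAs carry either or both kinds of box, reside in Cajal bodies and direct the same modifications on the spliceosomal RNAs. Most are cut out of the introns of host genes, many of which encode ribosomal proteins, translation factors or nucleolar proteins, so that host messenger RNA and small RNA come from 1 precursor. A few, U3 among them, have promoters of their own and act in cleavage of the ribosomal RNA precursor rather than in its modification.

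Sequences are shown for the RNAs on which the comparisons below turn. They are GENCODE 29 transcripts (build GRCh38), written with T. Capitals mark TGATGA (the box C core) before the midpoint, CTGA (box D) starting within the last 12 bases, and ACA followed by 3 final bases. Only the RNA strand was searched. SNORD86 and SNORD97 had the largest differences upward and downward among SNORD genes outside the U3 family with at least 200 counts.
SNORD86: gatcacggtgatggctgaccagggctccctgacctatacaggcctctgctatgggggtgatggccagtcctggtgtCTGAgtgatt
SNORD97: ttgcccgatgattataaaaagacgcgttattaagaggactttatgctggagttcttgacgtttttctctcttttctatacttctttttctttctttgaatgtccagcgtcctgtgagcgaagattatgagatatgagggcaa
SNORD14C and SNORD14D, a pair within HSPA8, differed in opposite directions.
SNORD14C: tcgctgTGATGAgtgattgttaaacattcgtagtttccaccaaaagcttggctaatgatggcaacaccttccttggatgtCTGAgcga
SNORD14D: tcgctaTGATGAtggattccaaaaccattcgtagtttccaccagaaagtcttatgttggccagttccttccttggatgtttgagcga
SCARNA6 and SCARNA5 are Cajal body RNAs that share the host ATG16L1.
SCARNA6: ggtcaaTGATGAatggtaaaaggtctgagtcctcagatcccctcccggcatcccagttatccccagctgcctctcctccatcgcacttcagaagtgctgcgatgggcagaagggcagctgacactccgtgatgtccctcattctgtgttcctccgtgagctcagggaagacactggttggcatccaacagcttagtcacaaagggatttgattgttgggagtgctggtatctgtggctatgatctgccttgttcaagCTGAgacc
SCARNA5: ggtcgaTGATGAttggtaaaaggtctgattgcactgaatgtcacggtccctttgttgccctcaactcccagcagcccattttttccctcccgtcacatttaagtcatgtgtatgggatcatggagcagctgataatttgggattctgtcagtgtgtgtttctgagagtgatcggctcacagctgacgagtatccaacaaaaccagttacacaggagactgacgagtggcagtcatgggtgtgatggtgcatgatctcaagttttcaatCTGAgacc
SNORA22 and SNORA22C differ at 2 positions, A87G and T104C (SNORA22 base, position from its first base, SNORA22C base), and show how far copies can share reads.
SNORA22: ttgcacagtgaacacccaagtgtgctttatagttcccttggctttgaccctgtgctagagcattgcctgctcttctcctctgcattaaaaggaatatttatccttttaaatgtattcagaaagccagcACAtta
SNORA22C: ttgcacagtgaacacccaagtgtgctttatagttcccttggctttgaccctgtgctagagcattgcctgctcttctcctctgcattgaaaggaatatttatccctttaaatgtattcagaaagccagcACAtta
TGATGA was found in 20 of 25 SNORD, 0 of 45 SNORA and 6 of 13 SCARNA genes, against 70.4% of all 152 SNORD genes of the table outside chromosome 13. CTGA near the end was found in 17 of the 25 SNORD genes, against 77.6% of the 152. The final ACA was found in 32 of 45 SNORA genes, against 71.9% of all 121. A missing match says only that these letters are not in that window.

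The resistant library held 34507480 counts and the parental library 34572931. The columns headed CAPAN1 were taken as parental, and the columns headed RCA, a name the labels do not spell out, as resistant because they are the remaining library. Every direction rests on that. BRCA2, whose amplification the series title names, had 7585 counts in the resistant and 1381 in the parental library. Counts were scaled by TMM, and log2 ratios are resistant over parental with 1 count added to each library. With 1 library per group no difference could be tested, so every statement describes these libraries, and intervals (95%, exact) cover counting error only. Across all 15102 genes with at least 50 counts, the median log2 ratio was 0.06.

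The small RNAs were lower, as a set, in the resistant library. They summed to 72757 counts (0.211% of the library, Wilson 95% interval 0.209% to 0.212%) in resistant cells and 98730 (0.286%, 0.284% to 0.287%) in parental cells. By far the largest count differences in these sums were those of SNORD3B-2 (5160 resistant, 14447 parental) and SCARNA7 (3695 and 9495). Across the 83, the median log2 ratio was -0.32, between -1.55 for SNORA12 and 1.18 for SNORD86. Of the 83, 56 (67.5%) had a log2 ratio below 0, against 48.8% of all genes at the count minimum. At least 2-fold lower were 13 (15.7%), against a background of 8.95% of all genes, and at least 2-fold higher were 2 (2.41%), against 6%. Of the lower genes, SNORA12, SNORA6 and SNORD9 reached the count minimum in the parental library only, with 19, 27 and 27 resistant counts. The higher genes, SNORD86 and SNORD104, reached it in both libraries. The background genes were taken by the same count minimum, but those on chromosome 13 were kept. The low share of higher genes depended on the minimum. With 10 counts, 18 of 196 small RNAs (9.18%) were higher, against 9.55% of all genes, and 32 (16.3%) lower, against 13.6%. With 200 counts, 2 of 46 (4.35%) were higher, against 4.27%, and 8 (17.4%) lower, against 6.67%. The median log2 ratio was -0.14 with 10 counts and -0.39 with 200. None differed 4-fold, against backgrounds of 1.67% higher and 1.66% lower. Equal levels lay outside the interval of 62 of the 83 small RNAs, against 84.9% of all genes. In bulk RNA, fewer cells with a transcript and less of it per cell cannot be told apart.

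The classes differed in their medians, which were -0.48 for SCARNA, -0.18 for SNORA and -0.14 for SNORD genes. Below 0 were 11 of 13 SCARNA, 29 of 45 SNORA and 16 of 25 SNORD genes. At least 2-fold lower were 4 SCARNA (30.8%), 5 SNORD (20%) and 4 SNORA genes (8.89%), against 8.95% of all genes, so that the SNORA share was at the background. The lower SNORA genes include SNORA12 and SNORA6, and the lower SNORD genes SNORD9, which reached the count minimum in the parental library only. The lower SNORD genes also include SNORD15A, within 2-fold under some settings, and the U3 genes SNORD3B-2 and SNORD3C. Reads of the U3 genes could be divided in more than 1 way, and their summed log2 ratio was -0.72, within 2-fold. Without the 4 U3 genes, 11 small RNAs of all classes were at least 2-fold lower. Both genes at least 2-fold higher were SNORD genes (8% of 25, against 6%). The quartiles were -1.17 and -0.25 for SCARNA, -0.45 and 0.26 for SNORA and -0.66 and 0.18 for SNORD. With a minimum of 200 counts the SNORD median was -0.51 and the SNORA median -0.18, so the order of these classes depends on the minimum. Summed counts gave log2 ratios of -0.82 for SCARNA, -0.59 for SNORD and -0.11 for SNORA. The 4 U3 genes make up 17124 of 24607 resistant and 28300 of 37282 parental SNORD counts.

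**Figure D1:**
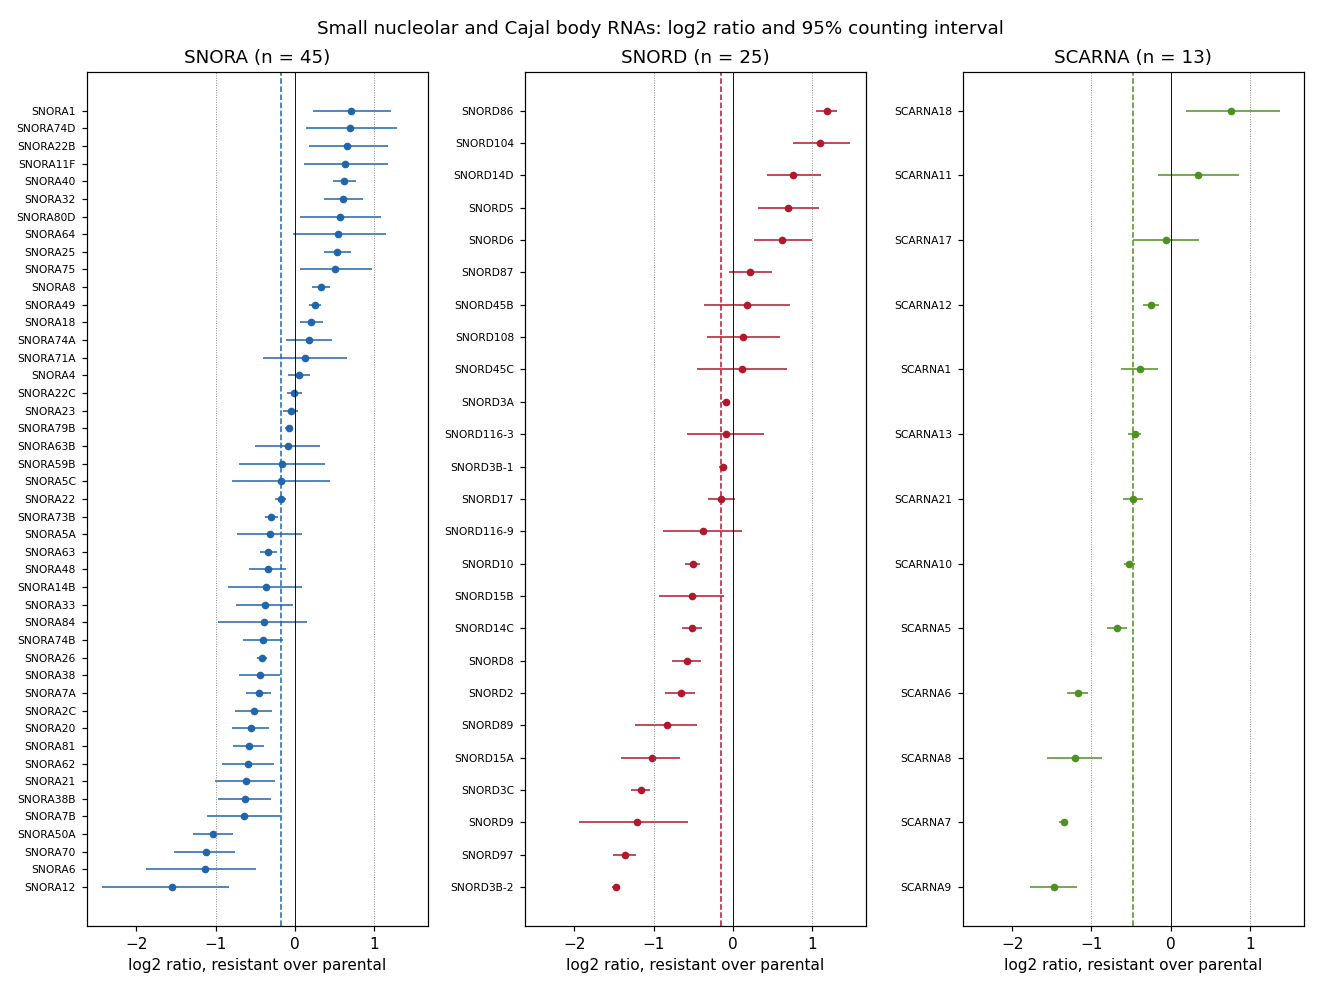
Log2 ratio of resistant over parental (points) with its 95% counting interval (lines) for each of the 83 small RNAs, in 1 panel per class. Dashed lines mark class medians (-0.18 SNORA, -0.14 SNORD, -0.48 SCARNA) and dotted lines 2-fold, and most points lie left of 0, the SCARNA points more so than the others.

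Among the Cajal body RNAs, SCARNA7, a guide for methylation of U1, had 3695 counts in resistant and 9495 in parental cells. This was 2.55-fold lower (ratio 0.392, interval 0.377 to 0.407). SCARNA9, a guide for U2, had 130 counts in the resistant and 364 in the parental library, a log2 ratio of -1.47. SCARNA8 had 103 resistant and 240 parental counts, a log2 ratio of -1.20. SCARNA6 had 681 resistant and 1549 parental counts (ratio 0.443, interval 0.404 to 0.485). These 4 were the Cajal body RNAs past 2-fold, and each interval lay below 1.

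SCARNA5, from the same host as SCARNA6, had 870 resistant and 1404 parental counts, a log2 ratio of -0.68. SCARNA10, a guide for U5 that carries both kinds of box, had 2870 resistant and 4145 parental counts (log2 ratio -0.52). SCARNA13 had 2167 and SCARNA12 1584 resistant counts, against 2995 and 1894 parental counts, with log2 ratios of -0.46 and -0.25. SCARNA10, SCARNA13 and SCARNA12 thus lay closer to equality than SCARNA7. SCARNA21 stood at 831 resistant and 1164 parental counts (-0.48), and SCARNA1, a guide for U2, at 275 and 363 (-0.39). SCARNA17 had 96 resistant and 101 parental counts, an interval that includes equality. The 2 Cajal body RNAs with a log2 ratio above 0 had the fewest counts. SCARNA18 had 68 resistant and 40 parental counts (ratio 1.71, interval 1.14 to 2.60), and SCARNA11 had 77 and 61 (ratio 1.27, interval 0.896 to 1.81).

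**Figure D2:**
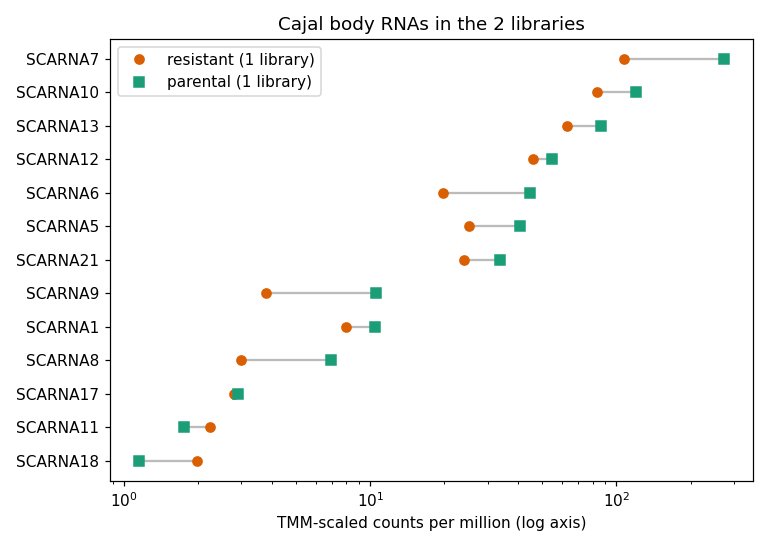
TMM-scaled CPM (log axis) of the 13 Cajal body RNAs, with circles for the resistant and squares for the parental library, 1 library each. The resistant circle lies left of the parental square for 11 of 13, and right of it for SCARNA11 and SCARNA18, which have the lowest parental levels.

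Among the box C/D RNAs, the U3 genes, whose RNA acts in the first cleavages of the ribosomal RNA precursor, formed 2 pairs. SNORD3B-2 had 5160 counts in resistant and 14447 in parental cells (ratio 0.360, interval 0.348 to 0.371), and SNORD3C had 772 and 1739 (ratio 0.447). SNORD3A had 6053 resistant and 6477 parental counts, and SNORD3B-1 had 5139 and 5637, with log2 ratios of -0.09 and -0.12. Between 84.5% and 99.4% of the 31-base words of these genes occur in another annotated transcript, so reads could be divided among them in more than 1 way. Their sum, 17124 resistant against 28300 parental counts, does not depend on that division among the 4 and gave a ratio of 0.609 (interval 0.598 to 0.621).

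SNORD97, within the translation factor gene EIF4G2 and a guide for methylation of elongator methionine tRNA, had 524 resistant and 1358 parental counts. It was 2.57-fold lower (ratio 0.388, interval 0.351 to 0.430), while EIF4G2 had a log2 ratio of 0.21. SNORD9 had 27 resistant and 64 parental counts, and SNORD15A had 92 and 189, with log2 ratios of -1.21 and -1.02. SNORD15A was within 2-fold with upper quartile scaling (-0.95), from FPKM (-0.98) and with a prior of 5 counts (-0.99). SNORD2 (379 resistant, 603 parental), SNORD8 (394 and 594) and SNORD10 (1653 and 2365) were lower by less than 2-fold, with log2 ratios of -0.66, -0.58 and -0.51. SNORD17 had 538 resistant and 598 parental counts, and its interval includes equality.

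SNORD86 had 1503 counts in resistant and 666 in parental cells, 2.27-fold higher (interval 2.07 to 2.49). It lies within NOP56, which encodes a core protein of the box C/D particles, and in human cells it is known to act on splicing of the NOP56 transcript that carries it. NOP56 had 18285 resistant and 11161 parental counts, a log2 ratio of 0.72, so SNORD86 differed more than its host. Its whole sequence lies in an annotated NOP56 transcript, and its FPKM was 1.05 times that of NOP56 in resistant and 0.759 times in parental cells, so both can share reads, and the part of these in its ratio was not tested. The median of the neighbouring coding genes, 10 on each side, was 0.00. SNORD104 had 204 resistant and 95 parental counts, 2.16-fold higher (interval 1.69 to 2.79), and its host SNHG25 had too few to compare, with 30 and 28. SNORD87, from SNHG6, had 246 and 213 counts, and its interval includes equality. The imprinted SNORD116-3, SNORD116-9 and SNORD108 had between 62 and 86 counts per library, and none differed beyond counting error.

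Among the H/ACA RNAs, the 4 most abundant lay within 2-fold on both sides of equality. SNORA79B had 7524 resistant and 7962 parental counts (ratio 0.951, interval 0.922 to 0.982), and SNORA22 had 3524 and 4016 (ratio 0.883). SNORA26 had 4000 resistant and 5360 parental counts, a log2 ratio of -0.41, while SNORA49 had 3429 and 2890, a log2 ratio of 0.26. SNORA73B, which encodes U17 and acts in small subunit ribosomal RNA processing, had 2042 and 2525 counts (-0.30). At least 2-fold lower were SNORA12 (19 resistant, 58 parental), SNORA6 (27 and 61), SNORA70 (85 and 188) and SNORA50A (195 and 402), and all but SNORA50A had fewer than 200 counts. All 31-base words of SNORA50A occur in another annotated gene, and its log2 ratio was -0.96 with upper quartile scaling and -0.98 from FPKM, within 2-fold. SNORA20 with 261 resistant and 387 parental counts (-0.56), SNORA2C with 259 and 374 (-0.52) and SNORA7A with 587 and 810 (-0.45) were lower by less. The highest SNORA ratios among genes with at least 200 counts came from the TAF1D gene, with SNORA40 at 0.62, SNORA32 at 0.61, SNORA25 at 0.54 and SNORA8 at 0.33, besides SNORA49.

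Longer RNAs had lower log2 ratios. Of the 13 small RNAs under 100 bases, all SNORD, 4 were below 0 and the median was 0.18. Of the 55 between 100 and 200 bases, 37 were below 0 and the median was -0.34. All 15 with 200 or more bases were below 0, with a median of -0.46, and so were all 14 that reach that length by the FPKM values. Across the 83, Spearman's rho between length and log2 ratio was -0.36, a description over RNAs that share the same libraries. Length and class overlap, since 7 of the 15 are SCARNA genes, and these 7 were all below 0 as were 4 of the 6 shorter SCARNA genes. The rho with the median of the neighbouring coding genes was 0.30, that with the mean level -0.20 and that with GC content -0.12.

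**Figure D3:**
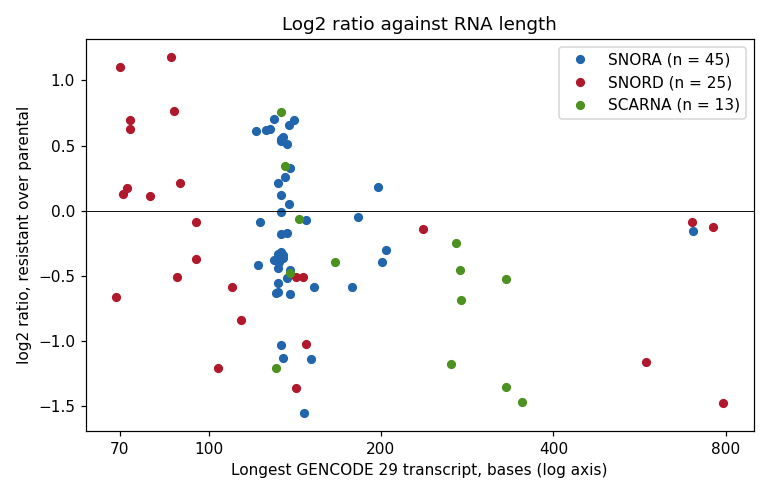
Log2 ratio of resistant over parental against the length of the longest GENCODE 29 transcript in bases (log axis), coloured by class. Every point at 200 bases or more lies below 0, including the 4 U3 genes at the right, whose annotated transcripts are longer than the 216 bases that the deposited FPKM values imply.

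Host genes were mostly higher in the resistant library. For 76 of the 83, a gene in the table contained the small RNA on the same strand, and for 73 of these the host had at least 50 counts. These 53 hosts had a median log2 ratio of 0.28, and 13 (24.5%) were below 0, against 48.8% of all genes. None was at least 2-fold lower, against 8.95%, and 1 (1.89%), the non-coding SNHG14, was at least 2-fold higher, against 6%. The small RNA had a lower log2 ratio than its host in 57 of 73 cases, with a median difference of -0.44. It was more than 2-fold below its host in 15 cases and more than 2-fold above it in 0. The median difference was -0.86 for SCARNA (12 pairs), -0.48 for SNORD (20 pairs) and -0.35 for SNORA (41 pairs). In 33 pairs the small RNA was below 0 and the host above, in 2 the reverse.

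The largest gap was that of SNORA12 in CWF19L1, at -1.93, which rests on 19 and 58 counts. SCARNA9 in CEP295 followed at -1.64 and SNORD97 in EIF4G2 at -1.58. SCARNA8 in HAUS6 and SCARNA6 in ATG16L1 both stood at -1.45. SNORA26, in the non-coding DANCR, was 1.11 log2 units below its host, which had 209 resistant and 129 parental counts. The 9 small RNAs in ribosomal protein genes had a median log2 ratio of -0.59, with 8 below 0, and their 7 host genes one of 0.13. On the other side, SNORA49 in EP400 was 0.47 above its host and SNORD86 was 0.46 above NOP56.

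**Figure D4:**
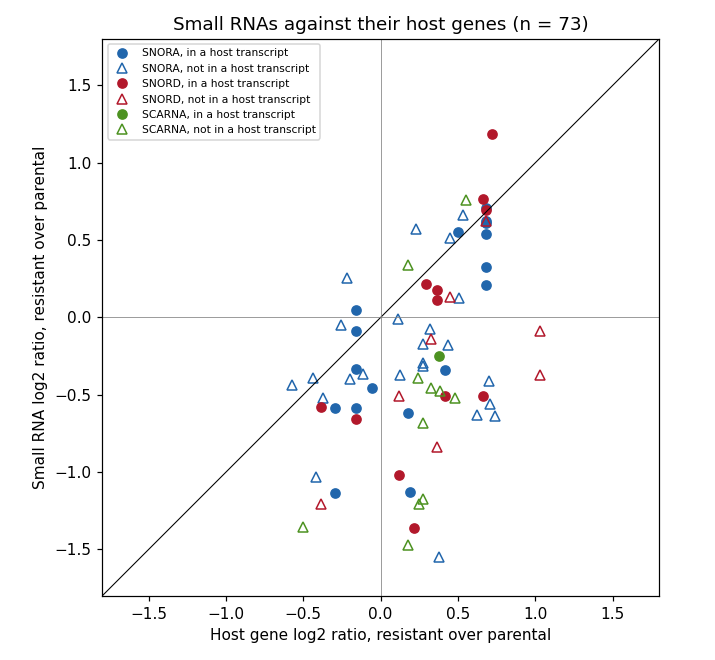
Log2 ratio of each small RNA (vertical) against that of its host gene (horizontal), both resistant over parental, for 73 pairs, with the line of equality. Filled circles mark small RNAs whose sequence lies in an annotated transcript of a containing gene and open triangles those whose sequence does not, and 57 points lie below the line.

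Small RNA and host can share reads where an annotated host transcript retains the intron. For 30 of the 73 pairs, at least 50% of the small RNA's 31-base words occur in a transcript of a containing gene. In these, Spearman's rho between small RNA and host was 0.75 and the median difference -0.27. In the other 43 pairs the rho was 0.20 and the median difference -0.59. The 30 pairs came from only 16 hosts, with several in TAF1D and in EIF4A2 that repeat 1 host value, and the 43 from 40 hosts. Over all 73 pairs the rho was 0.45, and 0.32 without the TAF1D members. The rho values of the 2 sets thus also differ in host make-up, and the part of this was not tested. The level of the small RNA gives a second view. In 25 pairs its FPKM, a value per length, exceeded that of its host in both libraries, with a rho of 0.33 and a median difference of -0.62. In the other 48 pairs the rho was 0.56 and the median difference -0.34. The lengths behind the host FPKM values were not compared with the annotation. The level of a host, and its log2 ratio, can thus rest on part of the gene. SNORA21 had 8.55 resistant and 12.7 parental FPKM within RPL23, which had 1135 and 970 FPKM. SCARNA7 had 132 and 324 FPKM within KPNA4 at 9.55 and 13.1. How the counts were divided is not given in the sources used here, and the part of shared reads in each ratio was not tested.

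Of the hosts, 11 held 2 or more of the small RNAs. TAF1D, a subunit of the factor that brings RNA polymerase I to ribosomal genes, held 8, and all 8 were above 0, between 0.21 for SNORA18 and 0.71 for SNORA1. SNORA8 had 1405 resistant and 1128 parental counts, SNORA40 1026 and 670, SNORA18 891 and 775, and SNORA25 689 and 478. SNORA32 had 339 and 223 counts, SNORD6 163 and 106, SNORD5 150 and 93 and SNORA1 93 and 57. TAF1D itself had 14567 resistant and 9163 parental counts, a log2 ratio of 0.68, and the neighbouring coding genes had a median of 0.58. The 8 sum to 4756 resistant and 3530 parental counts, equal in size to 32.6% and 38.5% of the TAF1D counts. The sequences of all but SNORD6 lie wholly in an annotated TAF1D transcript.

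EIF4A2, which encodes a translation initiation helicase, held 5 that were lower or near equality, between -0.66 for SNORD2 and 0.05 for SNORA4. SNORA63, its most abundant, had 1204 resistant and 1527 parental counts (-0.33) and SNORA81 had 363 and 548 (-0.58). EIF4A2 itself stood at -0.16 and its neighbouring coding genes at -0.57. In EIF4A1, its paralog, SNORD10 and SNORA48 (-0.51 and -0.34) were lower while the host was at 0.41. In ATG16L1, an autophagy gene at 0.28 with 611 resistant and 508 parental counts, SCARNA6 and SCARNA5 were both lower, and the neighbouring coding genes had a median of -0.60.

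HSPA8, a chaperone gene with 64345 resistant and 40956 parental counts (log2 ratio 0.66), held the pair that diverged most, U14 RNAs that act in small subunit ribosomal RNA processing. SNORD14C had 905 resistant and 1298 parental counts (ratio 0.702, interval 0.644 to 0.765). SNORD14D had 193 and 114 (ratio 1.70, interval 1.35 to 2.17), and the intervals do not overlap. The sequences printed above align with 78.5% identity and share 0 words of 31 bases. Both lie in an annotated HSPA8 transcript, and in FPKM SNORD14D stood at 26.1 and 14.8 and SNORD14C at 121 and 166, against 1626 and 992 for HSPA8. Among the rest, SNORD15A and SNORD15B in RPS3 (-1.02 and -0.51), SNORD9 and SNORD8 in CHD8 (-1.21 and -0.58) and SNORA6 and SNORA62 in RPSA (-1.14 and -0.59) were all lower. The pairs in TBRG4 and RABGGTB lay within 0.32 of 0. SNORD116-9 and SNORD116-3, identical over 95 bases, were at -0.37 and -0.09 within SNHG14, which had 257 resistant and 126 parental counts (1.03).

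**Figure D5:**
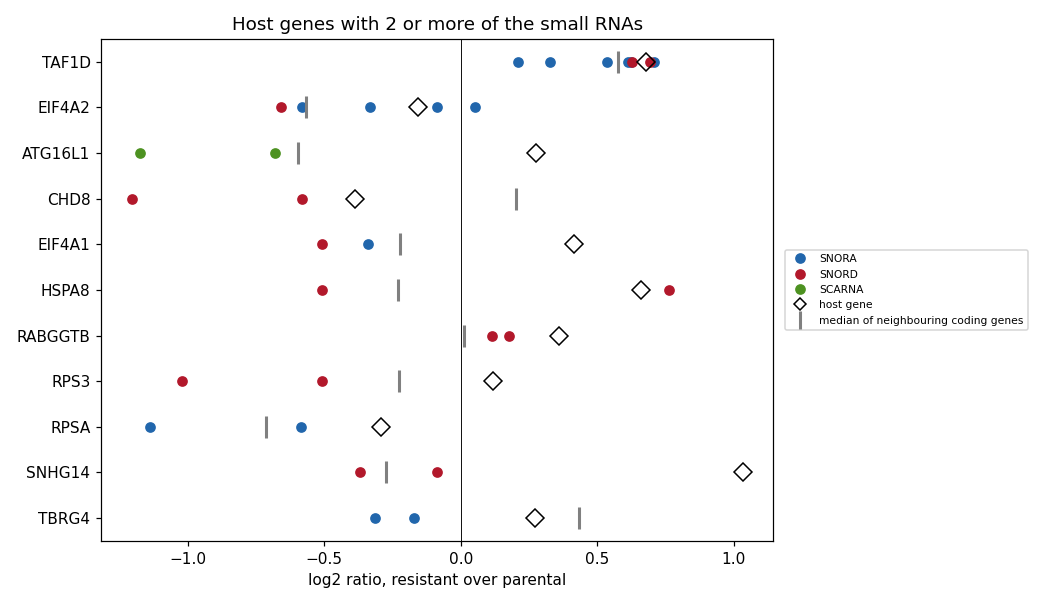
Log2 ratio of resistant over parental for the small RNAs (coloured circles) of the 11 host genes that hold 2 or more, with the host gene (open diamond) and the median of its neighbouring coding genes (grey bar). The TAF1D circles lie between 0.21 and 0.71 beside their host, the HSPA8 circles lie on opposite sides of 0, and in most other rows the circles lie left of the diamond.

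Sequence shared with other genes limits further values. For 22 of the 83, at least 20% of the 31-base words occur in an annotated transcript of a gene that does not contain the small RNA. These 22 had a median log2 ratio of -0.38, against -0.30 for the other 61. Copies at another place and small genes that overlap the small RNA were not told apart. The most words were shared with a microRNA gene for SNORA81 (MIR1248), SNORA2C (MIR1291) and SNORA84 (MIR3651). SCARNA9, past 2-fold, and SCARNA10 are among the 22, with 31.7% and 72.7% of their words in such genes. SNORA22 and SNORA22C, from the chaperonin pseudogenes CCT6P1 and CCT6P3, share 98.5% of positions and had 3524 and 1733 resistant counts, against 4016 and 1754 parental counts. SNORA22B, in CCT6A, had 90 and 57. The 3 sum to 5347 resistant and 5827 parental counts, a ratio of 0.924 (interval 0.890 to 0.959). SNORA7A and SNORA7B, 98.6% identical, sum to 655 and 917 counts (ratio 0.719, interval 0.649 to 0.796).

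The genes for proteins that build and mature these particles were mostly above 0. Over 38 listed protein genes at the count minimum the median log2 ratio was 0.29, and 6 were below 0, against 48.8% of all genes. At least 2-fold higher were 2 of the 38 and at least 2-fold lower 1, against 6% and 8.95% of all genes. The 4 box C/D core proteins were all above 0 but within 2-fold, led by NOP56 at 0.72 and the methyltransferase fibrillarin (FBL), with 1827 resistant and 1201 parental counts, at 0.61. The 4 H/ACA core proteins had a median of 0.19, with the pseudouridine synthase dyskerin (DKC1) at 0.39 and NHP2 at 0.23. Among 11 assembly factors the median was 0.27. NAF1, which loads H/ACA RNAs, had 33 resistant and 71 parental counts (ratio 0.468, interval 0.300 to 0.717), and SHQ1, a dyskerin chaperone, had 1019 and 1565 (-0.61). NUFIP1, an assembly factor gene on chromosome 13, stood at -0.86.

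Of 9 Cajal body protein genes all were above 0, with a median of 0.30. USPL1, on chromosome 13, was the 1 past 2-fold, with 4907 resistant and 1506 parental counts. WRAP53, which carries scaRNAs to the Cajal body, had 346 and 240 counts (0.54), and COIL, the coilin scaffold, 263 and 225 (0.23). The intervals of COIL and of GEMIN2, also among the 9, include equality. Of 10 processing and turnover genes, EXOSC8, an exosome subunit also on chromosome 13, had 18838 resistant and 2608 parental counts. EXOSC3 stood at 0.67, EXOSC10 at 0.54, DBR1, which opens intron lariats, at 0.14, and PARN, which trims H/ACA RNA ends, at -0.41. Of 19 listed non-coding host genes at the minimum, 16 were above 0 and 3 below, against 48.8% of all genes below 0, and the median was 0.56. SNHG14 was the 1 at least 2-fold higher, against 6% of all genes, with SNHG1 at 0.91 and GAS5 at 0.83. ZFAS1, at -0.56, and SNHG3, at -0.34, were lower.

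Of the same symbols on chromosome 13, 4 reached 50 counts and were left out above. SNORA27 (82 resistant, 19 parental) and SNORD102 (51 and 15) lie in RPL21, with log2 ratios of 2.06 and 1.71 beside 2.46 for the host. SNORA31 (284 and 869) and SNORA31B (802 and 2059) lie in TPT1, at -1.60 and -1.35 beside -1.20. At the count minimum, the nearest genes inside were SNORA5C with 44 resistant and 50 parental counts and SNORD45C with 57 and 53, and the nearest outside SNORD13 with 49 and 22 and SNORD116-5 with 26 and 48.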

How the data were processed

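Total RNA of resistant and parental cells gave 1 strand-specific library each, per the labels' protocols. The authors deposited 1 table that lists each gene's count and FPKM in both libraries, per the file headers. The counts are whole numbers without normalization, and the FPKM values are per length and depth. RSEM 1.2.3 and hg19 are named in the submitters' processing notes, with no role. No source used here gives the annotation, any rounding or whether counting used strand. The FPKM values imply the GENCODE length within 2% for 75 of 83 small RNAs. They imply 80 bases for SCARNA9 and 248 for SCARNA10, against 353 and 330.

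Symbols came from a gene name table, then GENCODE 29. That release describes GRCh38, so it served for gene order, hosts, transcripts and names, and no coordinates are given. A host is a gene in the table on the same strand whose span contains the small RNA, coding before non-coding, then the shortest. Hosts absent from the table were passed over, a step added to the planned rule. Ratios used TMM factors from edgeR 4.0.16 (R 4.3.3), a prior of 1 count and exact conditional 95% intervals, in Python 3.11.15 (scipy 1.17.1, numpy 2.4.6 and pandas 2.3.3). Fold changes are ratios of scaled counts without the prior. The calculation was tested on simulated data. The small RNAs, the lists and the rule for named genes were chosen with earlier results of these data known. The rule named every SCARNA, the 5 highest and 5 lowest ratios of SNORA and of SNORD at 200 or more counts in a library, the 4 with the most counts, their hosts, and listed genes past 2-fold, or the 2 largest differences. Host clusters, copies, other small RNAs and further listed genes were named after their values were seen. Neighbouring genes are the 10 nearest coding genes on each side with at least 50 counts.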

Additional observations from a re-analysis of the deposited data

How the results depend on the processing

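No median of the small RNAs, the 3 classes, the hosts, the listed proteins or the host differences changed sign under the alternatives run for it. Medians were read against the median bounds of the single counting intervals, a wide yardstick. The median of all small RNAs lay between -0.39 (minimum of 200 counts) and -0.14 (minimum of 10). The SNORD median moved most, at -0.51 with a minimum of 200, -0.37 without the TAF1D genes and -0.07 with upper quartile scaling, against -0.14. The SNORA median was -0.33 without the TAF1D genes, against -0.18. With a minimum of 10 counts, 18 of 196 were at least 2-fold higher and 32 lower, and with 200 counts 8 of 46 were lower. SNORA50A and SNORD15A lost their 2-fold call with upper quartile scaling and FPKM (11 lower under each), and SNORD15A with a prior of 5 (12 lower). None was past 4-fold, so these counts were 0 and 0. Without the genes that share at least 20% of their words with other genes, 8 were lower. Without those in host transcripts 1 was higher, and without SNORD3 11 were lower. Under the other minimums and exclusions the set of genes itself differs. Leaving out genes with shared words, those in host transcripts, TAF1D or SNORD3 was chosen after seeing the data.

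The median of all genes was -0.039 with a minimum of 10 counts and -0.028 as a mean, both of opposite sign to 0.06, and the cause was not tested. No scaling moved it by over 0.1, and the largest shift was 0.07 (upper quartile). Of 259 values of 37 named small RNAs, 11 moved beyond the counting interval, 1 changed sign and 2 crossed 2-fold. No paired analysis was possible because each group has 1 library, and no library could be left out. Depth limits the 37 small RNAs with fewer than 200 counts in both libraries.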

Other observations

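The spliceosomal RNA genes were spread to both sides, with most below 0. Of 40 genes of GENCODE type snRNA at the count minimum, 29 were below 0 and the median log2 ratio was -0.46. RNU2-2P had 198831 resistant and 280564 parental counts (-0.49), RNU1-1 59512 and 80955 (-0.43), RNU4-2 6161 and 8863 (-0.52) and RNU6-9 190 and 441 (-1.20). RNU4-1, also a U4 gene, went the other way, with 2431 resistant and 2117 parental counts (0.21). At least 2-fold lower were 5 (12.5%), against 8.95% of all genes, and at least 2-fold higher 7 (17.5%), against 6%. The 7 had 52 to 819 resistant and 0 to 89 parental counts. The mean log2 ratio was 0.01, but it includes 9.69 for RNVU1-17, with 819 resistant and 0 parental counts. Summed counts of the 40 gave a log2 ratio of -0.44, beside -0.43 for the 83 small RNAs. These genes have many near-identical copies, and their single values are uncertain. RMRP, the RNA of an endonuclease that cuts the ribosomal RNA precursor, had 123611 and 138551 counts (-0.16). TERC, the telomerase RNA, which carries an H/ACA domain, had 2846 and 2566 (0.16). The gene named 7SK, a regulator of transcription elongation, had 981237 and 906424 (0.12). Of 24 genes of GENCODE type misc_RNA at the count minimum, 7SK included, 18 were below 0 and 6 above, with a median of -0.25. Among the lower ones, RN7SL5P had 217659 resistant and 404189 parental counts (-0.88), and RN7SL4P 204206 and 360395 (-0.81). These genes were chosen after their values were seen.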
